A study of Mus musculus with 12 samples.

Results

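The 10 genes described here encode the JNK signalling cascade and the NAD switch that controls axon degeneration in neurons. They are the kinase DLK (Map3k12), the kinases MKK4 and MKK7 (Map2k4, Map2k7), the JNK kinases JNK1 to JNK3 (Mapk8, Mapk9, Mapk10), the scaffold JIP3 (Mapk8ip3), the NAD-synthesising enzymes NMNAT1 and NMNAT2 (Nmnat1, Nmnat2), and the NAD-cleaving enzyme SARM1 (Sarm1). They were chosen by symbol, with earlier results of these data known, among them the lower Mapk8 level in one comparison. All 10 were found among the 15391 genes of the count table, and 9 of them passed the filter on low counts. The exception was Map3k12.

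The samples were cultured neurons from dorsal root ganglia of adult mice of the genotype RPL22HA+/+;Advillin-Cre+. This genotype is RiboTag, an HA epitope on the ribosomal protein Rpl22 that Advillin-Cre switches on in sensory neurons. Every group came from mice preconditioned by an injury of the sciatic nerve before culture, so no group lacks the injury. The cultures received an adeno-associated virus, either a control or AAV-shLarp1, a short hairpin RNA against the RNA-binding protein gene Larp1. The labels name the control AAV-Control in every IP sample and AAV-shControl in every input sample. Any difference between these controls cannot be told apart from the fraction in the control IP to input ratios and in the interaction. For each virus the HA immunoprecipitate (IP), which holds RNA bound to tagged ribosomes with any background RNA, and the input RNA of the whole culture were sequenced, with 3 columns in each of 4 groups. The labels name neither the cell type in which the hairpin is active nor separate cultures or animals for the columns.

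In injured axons DLK is the upstream kinase of the cascade. It phosphorylates MKK4 and MKK7, which phosphorylate the JNKs, and JIP3 links these kinases to the axonal transport motors. JNK then phosphorylates c-Jun and starts the transcriptional injury response, which can lead to axon regrowth or to cell death. Axon survival depends on NMNAT2, a short-lived enzyme carried down the axon. When it is lost, NAD falls, SARM1 is activated, and the axon is taken apart. NMNAT1 is the nuclear enzyme of the same reaction.

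LARP1 binds the cap and an adjoining run of pyrimidines at the 5′ end of its best known target mRNAs, which begin with C. The annotated starts of the 3 JNK genes, where Mapk8 differed most between the viruses, are therefore shown first, from RefSeq with the GRCm38.p6 build. Each line holds 10 bases before and 20 bases from the annotated start on the gene's own strand, and capitals mark the run of C or T that begins at the start base.
Mapk8, chr14:33447139-33447168, minus strand: ggcccgcgtcTCTgttagtcagcggagcgg
Mapk8, chr14:33411005-33411034, minus strand: tattttgcagCCTTggtgaatatttggatg
Mapk9, chr11:49846741-49846770, plus strand: atccgtcagaCTgagcgccgcggcggcggc
Mapk10, chr5:103211315-103211344, minus strand: ttcagttgccatagcaaccccattccccaa
Mapk10, chr5:103058373-103058402, minus strand: ttccctgtaggtatttatgagcctccattt
The runs at the starts of Mapk8 were 3 and 4 bases long, that of Mapk9 was 2 bases, and those of Mapk10 had 0 bases. A start base C within a run of at least 5 pyrimidines stood at 0 of the 16 annotated starts of the 10 genes. Over all 32851 annotated starts the share was 2.51%, and over 66 starts of ribosomal protein genes 19.7%. Most of the latter mRNAs are known to carry such a tract. No match says only that these letters are not at these annotated positions.

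The 3 columns of a group were nearly as alike as random parts of a single library. A chi-square test between the columns of a group passed 0.05 for 6.98% to 7.62% of genes with at least 30 counts. After random division of the same counts it did so for 4.73% to 5.16%. The columns were therefore summed and each group counted as 1 sample, so no value below has a replicate check, and no p-value is given. The IP sums held 9382094 counts with the control virus and 9530760 with shLarp1, and the input sums 1693039 and 2279226. Levels are given as CPM, counts divided by the TMM-scaled size of the library, and log2 ratios are given with a 95% interval for counting error alone. A gene is called lower or higher where the whole interval lies beyond 1.5-fold. Larp1 had 442 counts in the control IP and 149 in the shLarp1 IP (log2 ratio -1.72, -2.0 to -1.45), and the tag carrier Rpl22 had 6137 and 6039. All 15 sensory neuron markers had counts in every group, and with the control virus 10 of them were called higher in the IP than in input and 0 lower. Their summed level was 5148 and 5399 CPM in the IP of the control and shLarp1 virus, and 2136 and 1190 in input. The lower input sum lay mostly in Uchl1, with 1772 and 935 input counts, the single marker called there (log2 ratio -1.12). Tubb3 (249 and 162 input counts, -0.82, -1.11 to -0.53) and Calca (308 and 249, -0.50, -0.75 to -0.26) also had intervals below 0. No marker had an input interval wholly above 0. In input 9 of the 15 markers were below 0 and 6 above, with a median of -0.03 against -0.14 over all genes. Markers of glia (10 of 10 in the table) summed to 525 and 486 CPM in the IPs and 565 and 590 in input. Those of fibroblasts (8 of 8) summed to 165 and 150 against 403 and 510, with 1 marker at 0 in each input. Those of macrophages (7 of 8) and of endothelial and mural cells (5 of 6) summed to at most 119 CPM in any group, with 2 of the latter at 0 in the shLarp1 input.

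**Figure D1:**
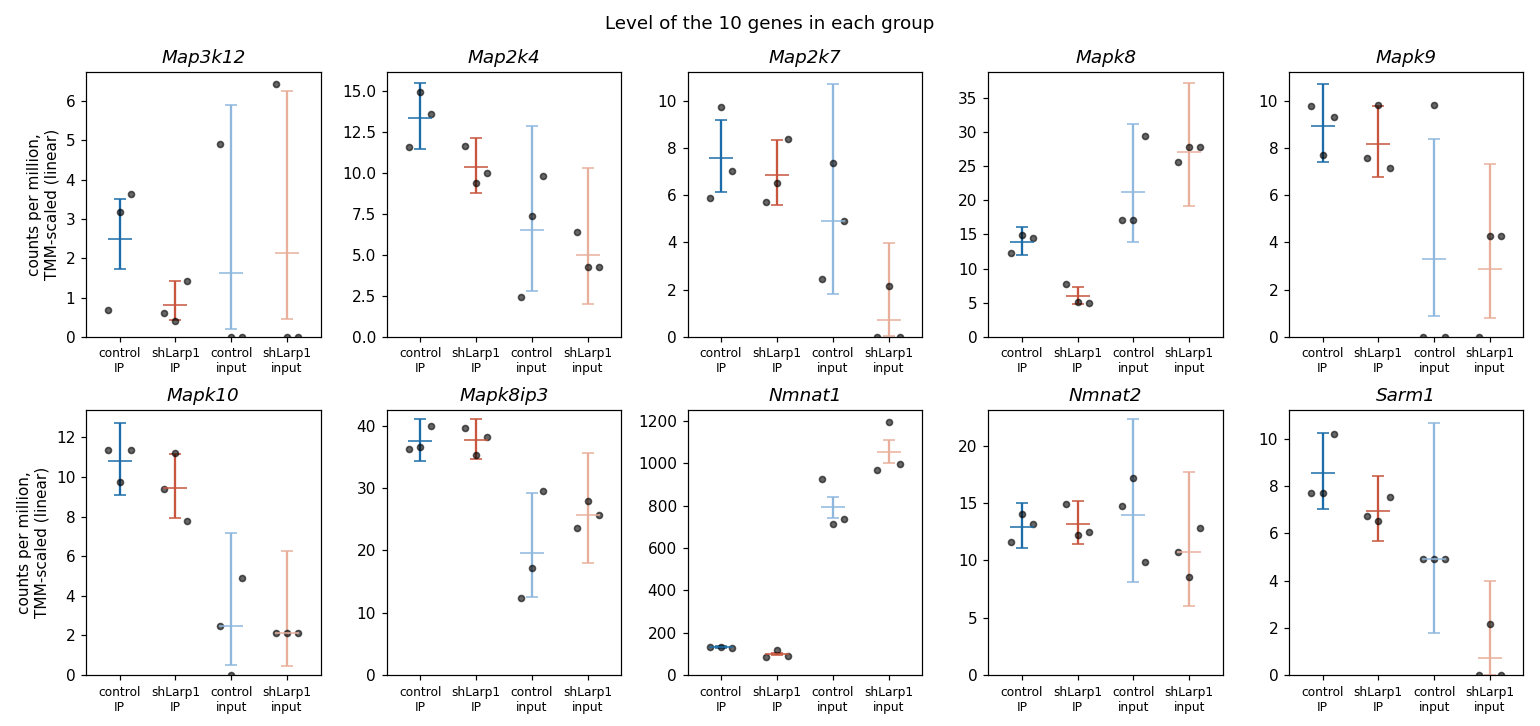
Level of each of the 10 genes (vertical axes, CPM on the TMM scale, linear and different for each gene) in the 4 groups. Horizontal marks are the summed group level with its 95% counting interval, and points are the 3 columns, each divided by the mean scaled size of the columns of its group. Mapk8 stands at 13.9 in the control IP and 5.92 in the shLarp1 IP, and Nmnat1 is far higher in both inputs than in both IPs.

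Mapk8 (JNK1) was lower in the IP after Larp1 knockdown, whereas the mRNAs of the other JNKs stayed near the median of all genes. The Mapk8 counts were 54, 66 and 64 in the control IP columns and 38, 25 and 24 in the shLarp1 IP columns. Every shLarp1 IP column lay below every control IP column. Here and below, columns are compared in raw counts unless stated. Their separation or overlap is not agreement or disagreement of replicates, since each group is 1 sample. The level was 2.35-fold lower, at 5.92 against 13.9 CPM (log2 ratio -1.23, -1.62 to -0.86). Across all genes, 4.4% were called lower in the IP and 0.719% higher, 5.12% in all, and the median log2 ratio was -0.08. This contrast was among the results known when the genes were chosen, so the count of 1 lower member of 9 is a description. In bulk RNA, fewer cells of a type and less RNA per cell cannot be told apart.

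Mapk9 (JNK2) had 43, 34 and 41 counts in the control IP and 37, 48 and 35 in the shLarp1 IP. Mapk10 (JNK3), the isoform most restricted to neurons, had 50, 43 and 50 against 46, 55 and 38. The columns of both groups overlapped for either gene. The IP log2 ratio was -0.13 for Mapk9 (-0.51 to 0.25) and -0.19 for Mapk10 (-0.54 to 0.15). The lower ends of these intervals lay above the upper end of the Mapk8 interval. Of all IP counts assigned to the 3 JNK genes, Mapk8 took 41.4% with the control virus (184 of 445, exact binomial interval 36.7% to 46.1%) and 25.1% with shLarp1 (87 of 346, 20.7% to 30.1%). These are shares of counts, not corrected for transcript length, so they do not give the order of the isoforms. The lower Mapk8 IP level was known when the genes were chosen. The IP shares and the interval ends restate it and support nothing further. In input the share was 78.8% (26 of 33) and 84.4% (38 of 45).

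The place of the Mapk8 IP value among other genes is given as a description, since that value was known when the genes were chosen, and it supports nothing further. Of 2888 genes with 100 to 300 control IP counts, 3.91% were called lower, and 44 had a lower log2 ratio than Mapk8. Of 1499 genes whose control IP to input ratio was within 0.5 log2 units of that of Mapk8, 1.53% were called lower and 12 had a lower ratio. Among the 8750 genes with a finite IP ratio, 156 had a lower value than Mapk8.

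**Figure D2:**
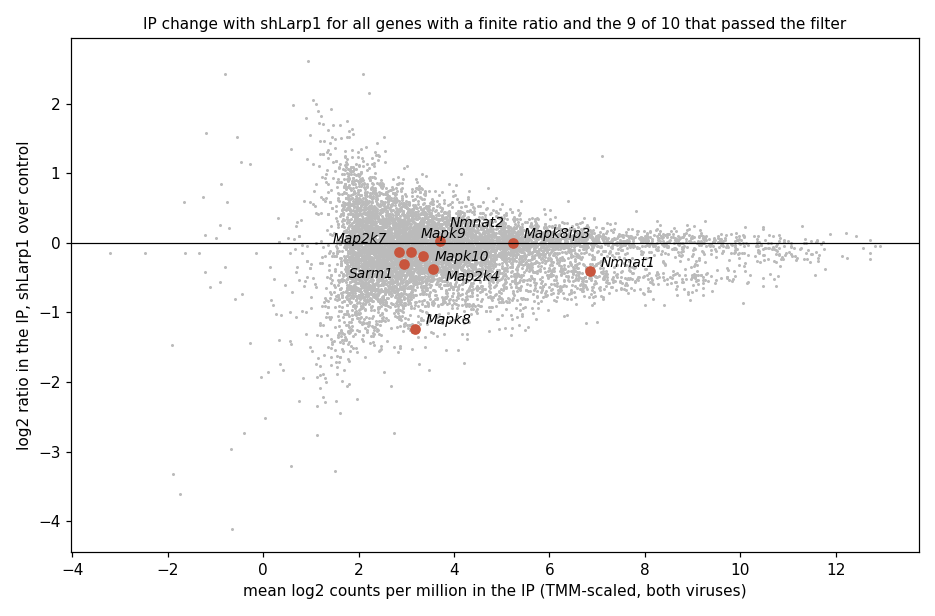
Each point is a gene that passed the filter and had a finite ratio, with its mean log2 level in the IP (horizontal axis) and its IP log2 ratio of shLarp1 over control (vertical axis). Mapk8 lies at -1.23 below the bulk of genes of its level, Nmnat1 lies at -0.41, and the other labelled genes lie between -0.37 and 0.03.

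Upstream of the JNKs, Map3k12 (DLK) had the most negative IP value of the 10 genes, but on few counts and with uneven columns. It had 3, 14 and 16 counts in the control IP and 3, 2 and 7 in the shLarp1 IP. The columns of both groups overlapped, since the control column with 3 counts was as low as the shLarp1 columns. The summed counts were 33 and 12, a 3.06-fold lower level (log2 ratio -1.61, -2.70 to -0.62). This gene did not pass the filter on low counts and is therefore in none of the counts of calls. Without the second or the third control IP column its value was -1.40 (upper end -0.28) or -1.24 (-0.09), and without the first or the second shLarp1 IP column it was -1.44 (-0.35) or -1.29 (-0.23), so that the interval no longer cleared 1.5-fold. Without the first control IP column it was -2.06 (-1.05), and without the third shLarp1 IP column -2.29 (-0.93). Upper-quartile and total-count scaling both gave -1.48 (-0.49), and neither cleared it. TMM with a control IP reference (-1.54, -0.55) and the fit without the first control input column (-1.54, -0.55) did not clear it. In RefSeq the gene Map3k12 overlaps Tarbp2 and Pcbp2. Reads of overlapping genes may not be told apart by the counting, whose use of strand is not given in the sources used here. Pcbp2 had 491 and 495 IP counts and Tarbp2 66 and 62.

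Map2k4 (MKK4), the kinase that phosphorylates the tyrosine of the JNK activation loop, had 51, 66 and 60 counts in the control IP and 57, 46 and 49 in the shLarp1 IP. Its log2 ratio was -0.37 (-0.69 to -0.05), which did not clear 1.5-fold. Map2k7 (MKK7), which acts on the threonine of the same loop, had 26, 43 and 31 counts against 28, 32 and 41 (-0.14, -0.55 to 0.28). For both kinases the columns of the groups overlapped. Mapk8ip3 (JIP3), the scaffold, was close to 0 with a narrow interval. It had 160, 161 and 176 counts in the control IP and 194, 173 and 187 in the shLarp1 IP, with a log2 ratio of 0.00 (-0.17 to 0.18), so that a change beyond 1.5-fold lies outside its counting interval.

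The NAD-metabolising genes did not clear 1.5-fold in the IP. Nmnat2, the axonal survival enzyme, had 51, 62 and 58 counts with the control virus and 73, 60 and 61 with shLarp1 (log2 ratio 0.03, -0.27 to 0.33). Sarm1, the executioner, had 34, 34 and 45 counts against 33, 32 and 37 (-0.30, -0.70 to 0.10). In raw counts the columns of the groups overlapped for both genes. On the TMM scale those of Nmnat2 overlapped too, while every shLarp1 column of Sarm1 lay below every control column. Nmnat1 had 587, 589 and 573 counts against 428, 587 and 448, and its level was 1.33-fold lower (132 to 99.5 CPM, log2 ratio -0.41, -0.51 to -0.31). Its shLarp1 IP columns did not behave as parts of a single library, since the second column was higher than the others. That column matched the control columns in raw counts. On the TMM scale every shLarp1 IP column lay below every control IP column. The chi-square between these columns was 30.8, and 37 of 10154 genes had a higher one. In RefSeq Nmnat1 overlaps Lzic (31 and 36 IP counts) and Tmem274, and Sarm1 overlaps Slc46a1 (46 and 51). Mapk8ip3 overlaps Nme3, and Map2k4 overlaps Mir744. Tmem274, Nme3 and Mir744 were not found by symbol in the count table. Reads of Nmnat1, Sarm1, Mapk8ip3 and Map2k4 therefore carry the same uncertainty as those of Map3k12.

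**Figure D3:**
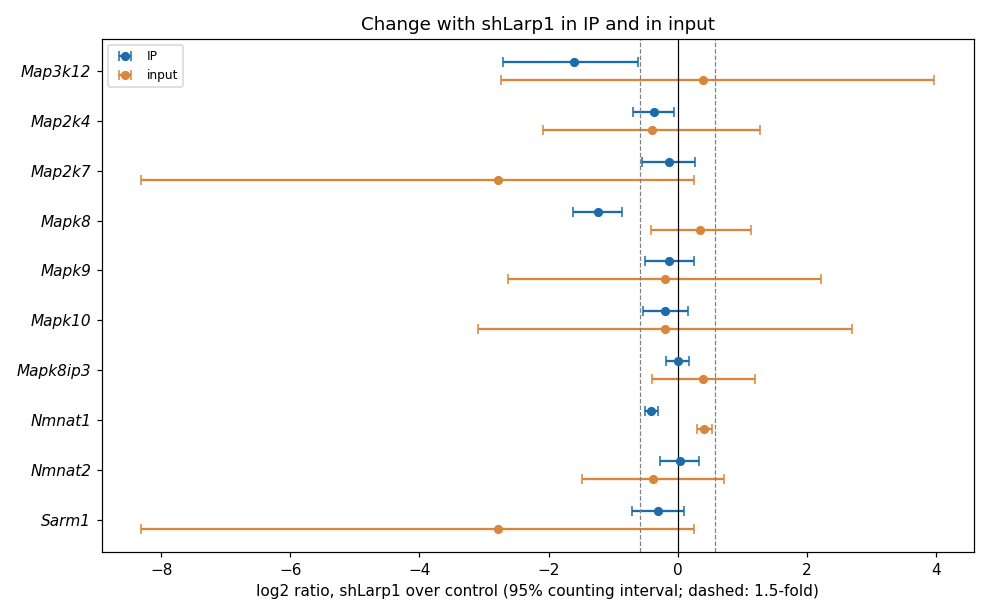
Log2 ratio of shLarp1 over control (horizontal axis) for each of the 10 genes (rows) in the IP and in input, with 95% counting intervals; dashed lines mark 1.5-fold. The Mapk8 interval in the IP (-1.62 to -0.86) lies wholly left of the 1.5-fold line while its input interval spans 0, and Nmnat1 has opposite signs in the IP and in input.

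In input, 0 of the 9 genes that passed the filter were called between the viruses. Across all genes with input counts, 1.01% were called lower and 0.171% higher, 1.19% in all. Input depth limits this comparison, since the median gene had 2 summed counts per input group. Mapk8 had 7, 7 and 12 counts in the control input and 12, 13 and 13 in the shLarp1 input. In raw counts, with the shLarp1 input the deeper (2279226 against 1693039), its columns touched at 12. The log2 ratio, which is scaled for depth, was 0.35 (-0.41 to 1.13), so the lower IP level was not seen in input. Mapk8ip3 had 5, 7 and 12 counts against 11, 13 and 12 (0.39, -0.40 to 1.2).

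Nmnat1 had enough input counts for a narrow interval, with 377, 291 and 300 counts in the control input and 452, 559 and 466 in the shLarp1 input. Every shLarp1 column lay above every control column in raw counts, which are not scaled for the greater depth of the shLarp1 input. The level was 1.33-fold higher (792 to 1054 CPM, log2 ratio 0.41, 0.29 to 0.53) and was not called. The columns were more uneven than counting error allows, with a chi-square of 13.9 in the control input (21 of 2131 genes higher) and 13.8 in the shLarp1 input (26 of 2136), so the interval is too narrow. Without the first control input column, which also changes the reference column of the scaling, it was 0.79 (0.65 to 0.93) and was called. Nmnat2 had 17 and 15 summed input counts (-0.38, -1.48 to 0.71).

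The other genes were close to the counting limit in input. Map2k4 had 8 and 7 summed counts (-0.39, -2.09 to 1.27), Mapk9 had 4 and 4, Mapk10 had 3 and 3, and Map3k12 had 2 and 3. Map2k7 and Sarm1 each had 6 counts in the control input and 1 in the shLarp1 input, with the same log2 ratio of -2.78 and the same interval of -8.31 to 0.26. A change with the virus was not detectable for these genes at this depth.

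The virus effects in the IP and in input were compared as a ratio of ratios. After its input change was divided out, Mapk8 was 2.97-fold lower in the IP with shLarp1 (log2 -1.57, -2.37 to -0.77), and Nmnat1 was 1.77-fold lower (-0.82, -0.98 to -0.67). These were the 2 called members of 9, against 5.57% of all genes called lower and 1.38% higher, 6.96% in all. Nmnat1 is one of 781 genes with an averaged log2 IP to input ratio under -2, of which 46.4% were called lower here. Of the 6807 genes with input counts and a higher ratio, Mapk8 among them, 0.896% were. The Mapk8 interaction has 26 and 38 input counts behind it, and its IP part was known when the genes were chosen. It was not called without the second control input column (-1.43, upper end -0.56) or with total-count scaling (-1.21, -0.40). That of Nmnat1 was not called without the first shLarp1 IP column (-0.74, -0.57), without the second shLarp1 input column (-0.73, -0.56) or with total counts (-0.46, -0.31). Map3k12, below the filter, had -1.86 (-4.38 to 0.66). The values of the other 7 genes ranged from -0.37 (Mapk8ip3) to 2.17 (Map2k7), each with an interval that held 0.

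The ratio of IP to input set the genes apart with either virus. With the control virus Nmnat1 was the sole called member, 5.99-fold lower in the IP than in input (log2 -2.58, -2.70 to -2.47), where 12.5% of all genes were called lower and 23% higher, 35.5% in all. With shLarp1 it was 10.6-fold lower (-3.40, -3.51 to -3.30). Averaged over the viruses, the log2 ratio was under -2 for 781 genes, Nmnat1 among them. This group had a median IP change of -0.48 and a median input change of 0.43, close to the -0.41 and 0.41 of Nmnat1. Of this group 14.6% were called lower in the IP, against 1.31% of the 6807 genes that had input counts and a higher ratio. In the interaction 46.4% of the group were called lower, against 0.896% of the 6807. The interaction median of the group was -0.90, and the value of Nmnat1 was -0.82. The same counts enter the averaged ratio and both calls, so these shares are a description and not a test. Of the 1185 genes with 0 counts in both inputs, 15.5% were called lower in the IP, with a median of -0.46. Lower IP calls were therefore not confined to the low ratios. Mapk8, with a mean ratio of -1.42, was among the 6807.

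The IP to input ratio of Mapk8 was lower than those of the other JNKs. Its log2 value was -0.61 (-1.21 to 0.04) with the control virus, which turned to 0.37 with total counts, and -2.20 (-2.76 to -1.61) with shLarp1, and the second was called. Mapk9 had 1.45 (0.05 to 3.35) and 1.52 (0.12 to 3.42), and Mapk10 had 2.14 (0.56 to 4.43) and 2.14 (0.57 to 4.44). The control value of Mapk10 rests on 3 input counts and just missed a call, with a lower end of 0.563 against 0.585. It was called higher with DESeq2 size factors, total counts, no filter or the 1.2-fold rule. Upper-quartile factors and a control IP reference for TMM did not give the call. The control value of Mapk9 rests on 4 input counts, all in the second column, and was 0.79 (-0.60 to 2.69) without the first control input column and 0.86 (-0.54 to 2.76) without the third. Without the latter Mapk8 was -0.31 (-1.09 to 0.59), so its control interval then overlapped that of Mapk9. Map2k4 had 1.03 and 1.05, Mapk8ip3 0.94 and 0.55, and Nmnat2 -0.11 and 0.30, and none of these was called.

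Map2k7 and Sarm1 were called higher in the shLarp1 IP than in its input, where 13.1% of all genes were called lower and 25.9% higher, 39% in all. Map2k7 had 101 IP counts and 1 input count (log2 3.27, 0.76 to 8.59) and Sarm1 had 102 and 1 (3.28, 0.77 to 8.60). With the control virus their values were 0.62 and 0.80 and were not called. The 2 calls rest on a single input count each and were lost with upper-quartile scaling (2.77 and 2.78). Both were also lost without the first control input column (3.02 and 3.03), the first shLarp1 input column (2.68 and 2.70) or the third (2.69 and 2.70). Without the third shLarp1 IP column, or with a control IP reference for TMM, Map2k7 was lost (3.10 and 3.09) and Sarm1 was not. The Mapk8 call in this comparison was lost with total counts (-0.85, upper end -0.26).

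**Figure D4:**
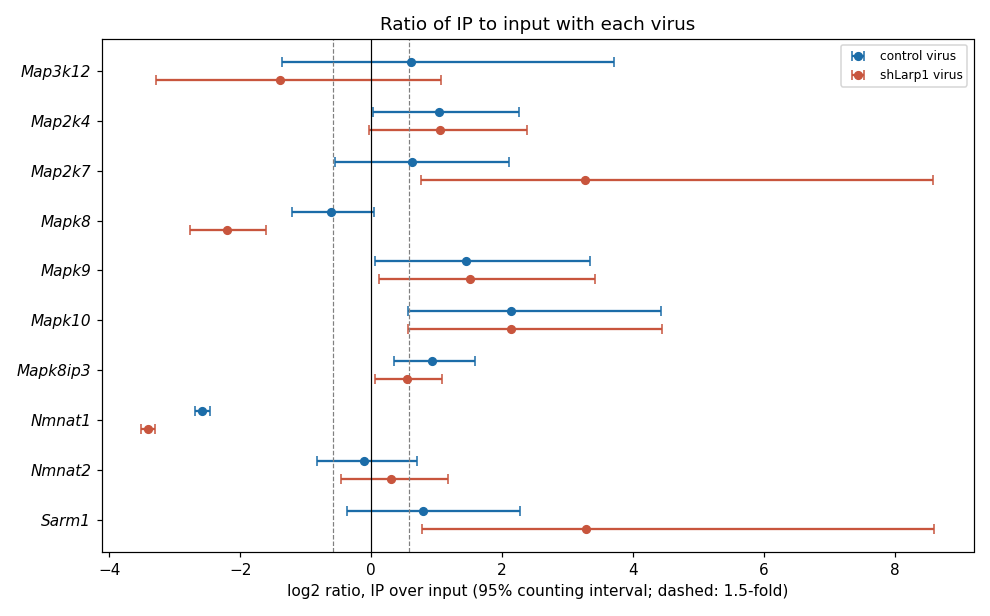
Log2 ratio of IP over input (horizontal axis) for each of the 10 genes (rows) with the control and the shLarp1 virus, with 95% counting intervals; dashed lines mark 1.5-fold. Nmnat1 lies far to the left with both viruses (-2.58 and -3.40), Mapk8 moves from -0.61 to -2.20, and Mapk9 and Mapk10 lie to the right of 0 with both.

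Among other genes of the JNK pathway, 2 phosphatase genes were called lower in the IP. Of 39 listed genes, 35 were in the table and 25 passed the filter. In the IP 2 of them were called lower and 0 higher, where 4.4% of all genes were lower and 0.719% higher, and the median was -0.05. Several genes that were not called had intervals that left out 0, among them Map3k11 (0.99, 0.38 to 1.63), Fos (0.85, 0.21 to 1.51), Map3k7 (-0.73, -1.24 to -0.23), Traf2 (-0.68, -0.84 to -0.52) and Spag9 (-0.58, -0.99 to -0.17). Both lower genes encode phosphatases that switch off JNK and related MAP kinases. Other phosphatases of the list that passed the filter had positive values and were not called. They were Dusp1 with 300 and 384 counts (0.20, -0.02 to 0.43) and Dusp10 with 52 and 78 (0.43, -0.09 to 0.97). Dusp4, below the filter, had 7 and 3 counts (-1.37, -3.96 to 0.76). Dusp8 had 70 and 32 counts (log2 ratio -1.28, -1.93 to -0.66) and Dusp16 had 78 and 35 (-1.31, -1.93 to -0.72). In input they had 6 and 7, and 6 and 4 counts. Jun, the transcription factor that JNK phosphorylates, had 691 and 1024 IP counts (0.42, 0.27 to 0.56), and the injury-induced factor Atf3 had 1366 and 1468 (-0.05, -0.16 to 0.06). Neither was called. Stmn2, an axonal microtubule regulator and JNK substrate, had 0.09 (0.07 to 0.12). The list holds Map3k13 (LZK), the closest relative of DLK, which had 8 and 6 IP counts against 37 and 25 input counts, a ratio of IP to input of -5.65 and -5.45. Traf2, an adaptor of the TNF receptor pathway, was the listed JNK pathway gene called in the interaction (-1.17, -1.41 to -0.92), with ratios of IP to input of -2.46 and -3.63. Over all genes 5.57% were called lower in the interaction and 1.38% higher. Of the 781 genes with an averaged ratio under -2, 46.4% were called lower. In input 0 of the 25 were called, against 1.19% of all genes.

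Of 13 other MAP kinase and MAP kinase kinase genes, 9 passed the filter, and 0 were called between the viruses in the IP, in input or in the interaction. Over all genes 5.12%, 1.19% and 6.96% were called, so 0 of 9 is close to these shares. The IP median of the 9 genes was 0.06. Mapk3 (ERK1) had 2068 and 2396 IP counts (0.06, -0.03 to 0.15), and Mapk14 (p38 alpha) had 102 and 124 (0.13, -0.26 to 0.52). The lower ends of these intervals, too, lay above the upper end of the Mapk8 interval, a description, since the Mapk8 value was known beforehand.

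Of 40 listed genes of NAD metabolism and axon degeneration, 34 were in the table and 25 passed the filter. In the IP 1 was called lower and 0 higher, against 4.4% and 0.719% of all genes, with a median of -0.08, against -0.08 over all genes. The lower gene was Nmrk1, a nicotinamide riboside kinase that feeds NAD synthesis (218 and 111 counts, -1.13, -1.47 to -0.79). Its input counts went from 50 to 88 (0.62, 0.10 to 1.15). Nampt, the enzyme that makes NMN, had 75 and 79 IP counts (-0.08), and Mycbp2, the ubiquitin ligase that removes NMNAT2, had 49 and 53 (-0.04). In the interaction, where 5.57% of all genes were called lower, 3 of the 25 were, namely Nmrk1 (-1.73), the deubiquitinase Usp9x (-1.13) and the NAD-consuming enzyme Parp1 (-0.95). Parp1, with 3840 and 3292 IP counts and 2936 and 5018 input counts, had ratios of IP to input of -3.05 and -4.00. Usp9x had -3.05 and -4.18, and Nmrk1 had -1.31 and -3.06. Of the 781 genes with an averaged ratio under -2, 46.4% were called lower in the interaction. In input 0 of the 25 were called, against 1.19% of all genes. The chaperone gene Hsp90aa1, whose product stabilises DLK, lay at the other end with an IP to input ratio of 3.26 with the control virus.

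**Figure D5:**
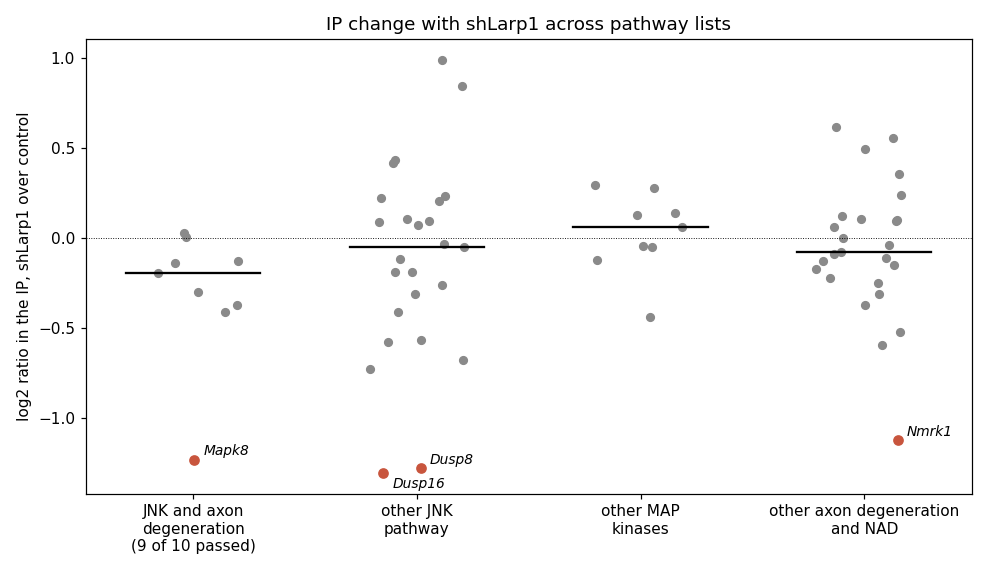
IP log2 ratio of shLarp1 over control (vertical axis) for the genes that passed the filter in each of 4 lists, with called genes in red and the list medians as lines. Mapk8, Dusp8, Dusp16 and Nmrk1 lie below -1 and are the only called genes in the 4 lists.

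The genes whose pattern over the 4 groups was most like that of Mapk8 were Fggy, Esco2, mt-Co2, Zfp607a and Cep295. Likeness was the Euclidean distance between log2 levels centred on each gene's mean over the 4 groups, among 4240 genes with enough counts, and ranged from 0.25 to 0.40 for these genes. Fggy, a carbohydrate kinase gene, had 132 and 73 IP counts and 17 and 27 input counts, so it was low in the shLarp1 IP and not in input, as Mapk8 was. Their IP values ranged from -1.01 (Fggy) to -0.67 (Cep295), none as low as that of Mapk8.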

How the data were processed

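Libraries were prepared for nanopore sequencing by barcoded cDNA-PCR, per the labels' protocols. No molecular identifiers are named, so PCR copies are not independent molecules, and the intervals cover counting error only. The deposited table holds the authors' estimated counts per gene as whole numbers with no depth scaling. Salmon and minimap2 are named, with GRCm39 and mm39 as builds, per the submitters' processing notes. For versions, annotation and strand use: not given in the sources used here. The labels speak of cultured neurons, and their extraction text of fresh ganglia.

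A gene name table gave symbols to 13711 of 15391 identifiers, all 10 genes among them. Columns were summed per group. This departs from edgeR's quasi-likelihood test on replicates, which was run as an alternative. filterByExpr (edgeR 4.0.16, R 4.3.3, minimum count 10) left 8773 genes, and TMM factors from the 12 columns gave the scale of each group. Ratios have exact (Clopper-Pearson) 95% intervals; the interaction has 0.5 counts added per group and a normal approximation on the log scale. The rule was tested on simulated data that held counting error alone. That test does not cover PCR copies, uneven columns or differences between libraries. The labels do not say that columns came from separate cultures or animals.

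The 10 genes, the pathway and marker lists and the naming rule were chosen with earlier results of these data known. The rule names the 10 genes, Larp1, listed JNK, axon degeneration and NAD genes called in the IP, up to 4 of the largest called in other comparisons (finite ratios only) and the 5 genes nearest to Mapk8. Further listed genes, such as Jun and Mapk3, were named after their values were seen for their known roles. Alternatives covered 4 scalings, the filter, the fold rule, each column left out, and edgeR and DESeq2 1.42.0 tests on the columns with calls at an adjusted p under 0.05. The unfiltered Map3k12 values were an alternative added after seeing the data. RefSeq starts and gene overlaps are from assembly GRCm38.p6, used for sequence and neighbours only. Transcript lengths were not used, so levels are not compared between genes.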

Additional observations from a re-analysis of the deposited data

Results flagged for a closer look

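Mapk8 is listed because its change with shLarp1 differed between the IP and input: the difference of the log2 changes was -1.57, with a counting interval wholly beyond 1.5-fold. Nmnat1 is listed for the same reason, with a difference of -0.82. The 781 genes with an averaged IP to input ratio under -2, Nmnat1 among them, had a median difference of -0.90, and 46.4% of them were called lower. Each group is 1 sample, so these differences compare libraries, and no replicate check exists.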

How the results depend on the processing

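The IP call of Mapk8 held under all 4 other scalings, without the filter and without any column (log2 ratio -1.48 to -1.10), but not with a 2-fold rule. The counts of called members moved as follows. In the IP (1 in the main setting) there were 2 without the filter (Mapk8 and Map3k12), 2 with a 1.2-fold rule (Mapk8 and Nmnat1), 0 with a 2-fold rule, and 1 to 1 with a column left out. In input (0) there was 1 with the 1.2-fold rule and 0 to 1 with a column left out. With the 1.2-fold rule 286 of 7588 genes were lower there and 326 higher. In the interaction (2) there were 0 with total counts, 0 with the 2-fold rule, and 1 to 2 with a column left out. For control IP over input (1) there were 2 with DESeq2 size factors, 6 with total counts, 2 without the filter, 3 with the 1.2-fold rule, and 1 to 2 with a column left out. Mapk10 was the added gene with DESeq2 size factors and without the filter. Of all 8773 genes, 651 were lower and 4549 higher with total counts. With DESeq2 size factors these were 1021 and 2221, and with the 1.2-fold rule 1408 and 2679. Without the filter 1056 genes were lower and 2398 higher. For shLarp1 IP over input (4) there were 2 with upper-quartile factors, 8 with total counts, 2 with the 2-fold rule, 5 without the filter, 5 with the 1.2-fold rule, 3 with a control IP reference, and 2 to 4 with a column left out. The cause of these moves was not tested, beyond the change of threshold or of genes tested that the fold rules and the filter make by construction.

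With the columns as replicates, the edgeR quasi-likelihood test called 2 members in the IP (all 8773 genes: 1842 lower, 598 higher). It called 1 in input (313, 465), 4 in control IP over input (1620, 3242) and 6 in shLarp1 IP over input (1510, 3856). DESeq2 called 2, 1, 3 and 5, with no all-gene counts given here, so these cannot be set beside a share of all genes. Both called 2 in the interaction, Mapk8 and Nmnat1 (edgeR, all genes: 645, 334). The numbers of the columns did not pair them: same-numbered columns of 2 groups had correlations of -0.06 to 0.04 in their deviations. With a replicate block edgeR called 2, 1, 3 and 6 members in the same comparisons and 2 in the interaction, with fewer all-gene calls throughout.

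Over all genes, the split of lower to higher calls in the IP was 386 to 63, and 207 to 104 with upper-quartile factors, 204 to 105 with total counts, 273 to 79 with TMM on a control IP reference and 753 to 313 without the filter. In input it was 77 to 13, against 35 to 181 with DESeq2 size factors, 43 to 117 with upper quartiles, 204 to 7 with total counts, 29 to 214 with the control IP reference and 30 to 208 without the first control input column. In the interaction it was 423 to 105, and 138 to 401 with total counts. In control IP over input it was 1095 to 2021, and 1590 to 1293 with upper-quartile factors and 651 to 4549 with total counts. In shLarp1 IP over input it was 1147 to 2274, and 1489 to 1328 and 748 to 6183. The 1.2-fold and 2-fold rules gave 1230 to 272 and 71 to 14 in the IP. The IP median over all genes was -0.08, and 0.05 with either upper quartiles or total counts, which turns the sign of values near 0. With total counts the interaction median went from 0.07 to 0.43 and that of control IP over input from 0.38 to 1.36. Without the second shLarp1 input column, which holds their single count, Map2k7 and Sarm1 have no finite ratio of IP to input, and they were called there from the lower end of the interval. Input depth limits the precision for all members except Nmnat1.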
